A study of Mus musculus with 2 samples.

Results

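The suprachiasmatic nucleus (SCN) of the hypothalamus is the master circadian clock of mammals, and its neurons release GABA together with peptides. Of the peptide precursor genes, 7 are described here: Sst, Cck, Gal, Penk, Tac1, Pdyn and Nts. They were chosen by gene symbol in a table of 24229 genes, and all 7 were found and passed the filter on low counts, as did 14343 genes in all. SCN tissue was compared between mice entrained to a short T-cycle (ST), a light-dark schedule of set period, and mice entrained to a normal one (NT). All mice were wild-type C57BL/6 animals, and the labels give the age of both groups as postnatal day 68. Per the labels' protocols, 16 mice spent 7 days in constant darkness and were then divided into an ST and an NT group of 8 each. After 4 weeks of entrainment and 5 days in darkness, brains were taken at circadian time 4 h, and the nucleus was dissected out of 250 µm slices. Each group is 1 RNA sequencing library of polyadenylated RNA, and the sources used here give neither the number of mice in a library nor the periods of the cycles.

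A neuropeptide is made as a long precursor that is cut at pairs of basic residues inside dense-core vesicles, trimmed, often amidated, and released on strong or repeated firing. It acts mostly on G-protein-coupled receptors, and its effect often reaches further and lasts longer than that of GABA. Sst encodes somatostatin, which inhibits hormone and transmitter release. Cck encodes cholecystokinin, known as a gut satiety hormone and a brain peptide, and Gal encodes galanin, which mostly inhibits the neurons it reaches. Penk encodes the enkephalins and Pdyn the dynorphins, both opioid peptides. Tac1 encodes the tachykinins substance P and neurokinin A, and Nts encodes neurotensin and neuromedin N. All of these genes are also active in neurons just outside the SCN, and a library of dissected tissue does not tell the sources apart.

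The 300-base promoters of Sst, Cck and Gal, whose transcripts were the ones higher in the ST library beyond counting error, are printed first. They come from RefSeq on build GRCm38.p6 and run 5′ to 3′ on the gene's minus strand, from 250 bases before the transcription start to 50 bases after it. The positions are chr16:23890795-23891094 for Sst, chr9:121495645-121495944 for Cck and chr19:3414495-3414794 for Gal. Capitals mark the cAMP response element TGACGTCA, its shorter core TGACG, which lies within the full element, the AP-1 site TGANTCA and the E-box CACGTG, each searched on both strands.
Sst promoter: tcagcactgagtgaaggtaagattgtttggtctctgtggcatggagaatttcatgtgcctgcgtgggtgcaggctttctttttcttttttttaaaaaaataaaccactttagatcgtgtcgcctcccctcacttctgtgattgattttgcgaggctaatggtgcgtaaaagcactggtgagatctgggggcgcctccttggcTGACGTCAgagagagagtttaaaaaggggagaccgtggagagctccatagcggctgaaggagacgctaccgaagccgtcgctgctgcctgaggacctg
Cck promoter: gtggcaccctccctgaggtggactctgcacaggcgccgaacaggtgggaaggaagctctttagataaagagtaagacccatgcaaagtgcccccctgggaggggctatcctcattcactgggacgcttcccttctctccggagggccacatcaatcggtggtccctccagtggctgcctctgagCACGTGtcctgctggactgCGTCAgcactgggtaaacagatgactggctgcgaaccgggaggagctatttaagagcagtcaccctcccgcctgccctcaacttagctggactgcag
Gal promoter: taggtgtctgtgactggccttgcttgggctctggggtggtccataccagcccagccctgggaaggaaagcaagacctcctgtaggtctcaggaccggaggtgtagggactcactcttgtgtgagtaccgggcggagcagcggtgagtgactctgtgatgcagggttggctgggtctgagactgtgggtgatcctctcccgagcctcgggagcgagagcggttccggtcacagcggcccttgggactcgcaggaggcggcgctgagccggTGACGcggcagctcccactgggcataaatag

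Of the 6 genes with a promoter, Sst alone held the full cAMP response element, at bases -48 to -41 counted from 0 at the transcription start, a sequence present in 1.79% of 32851 promoters of the same length. The core element was found in the promoters of Sst, Cck, Gal, Tac1 and Nts, against 23% of all genes with a promoter and 20.8% of all promoters. In Cck it lay at bases -47 to -43 on the opposite strand, and in Tac1, which was not higher in ST, at -43 to -39 and again at -197 to -193, also on the opposite strand. In Gal it lay after the start, at bases 19 to 23, and in Nts at -166 to -162. An E-box, the sequence bound by the clock factors CLOCK and BMAL1, was found in Cck (-66 to -61) and Tac1 (-61 to -56) and is present in 7.15% of promoters. Nts held an AP-1 match (-207 to -201), a sequence in 7.81% of promoters, and both Pdyn promoters held 0 matches of any of the 4 motifs. Counted by gene, 2.03% of 27025 genes held the full cAMP response element, 8.09% an E-box and 8.97% an AP-1 match. RefSeq promoters were matched for 6 of the 7 genes, and Penk was not matched. These are matches of letters and do not show that a factor binds there.

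**Figure D1:**
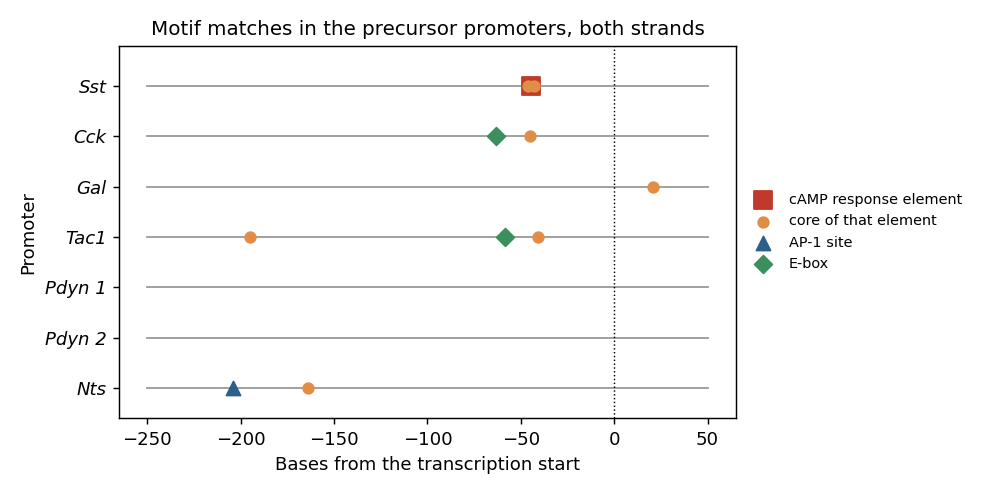
Motif matches on both strands in the RefSeq promoters of 6 precursor genes (Pdyn has 2), by distance in bases from the transcription start (dotted line). The full cAMP response element stands in Sst alone, at -48 to -41, and core elements of Cck and Tac1 lie within 10 bases of that place.

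The genes are short, with coding sequences of 351 bases in Sst, 375 in Gal, 393 in Tac1, 405 in Cck, 510 in Nts, 747 in Pdyn and 807 in Penk (GENCODE vM1, NCBIM37). Somatostatin-14 is the last stretch of the Sst coding sequence (chromosome 16), printed with its stop codon in capitals.
Sst coding end: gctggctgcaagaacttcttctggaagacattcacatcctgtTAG
Opioid precursors carry several copies of a shared core. To look for it, the in-frame run of codons TAN, GGN, GGN and TTN was counted in each coding sequence. This run is wider than the core, because TTN spans leucine as well as phenylalanine codons, so a match need not spell the core. It was found 7 times in Penk and 3 times in Pdyn, and 0 times in Sst, Cck, Gal, Tac1 and Nts. Of 21463 genes with a complete coding sequence, 89 held it at least once and 4 held it 3 times or more, the other two being keratin-associated genes. The copies of Pdyn (chromosome 2) are printed with the core in capitals and, in lower case, the neighbouring codons.
Pdyn copy 1: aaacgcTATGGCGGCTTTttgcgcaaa
Pdyn copy 2: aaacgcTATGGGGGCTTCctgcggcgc
Pdyn copy 3: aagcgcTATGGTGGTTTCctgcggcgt

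Sst was by far the most abundant of the 7 precursors per unit of length, Penk came second, and the other five were lower. Levels are given as the authors' RPKM (reads per kilobase of gene and per 1000000 reads), with an exact 95% Poisson interval that covers counting error only, since there were no replicates and reads lacking molecular identifiers may copy the same molecule. Sst stood at 507 RPKM in the ST library (494 to 520) and at 426 RPKM in the NT library (416 to 437), and it ranked 64th in ST and 76th in NT among all genes. Penk stood at 85.9 RPKM in ST (82.7 to 89.2) and 81.1 RPKM in NT (78.3 to 83.9). Sst made up 78.1% of the summed RPKM of the 7 genes in ST and 76.6% in NT, and Penk 13.2% in ST and 14.6% in NT.

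The remaining precursors lay between 5.39 and 18.4 RPKM in ST, and between 5.79 and 13.9 RPKM in NT. Cck was at 18.4 RPKM in ST (16.4 to 20.7) and 12.6 RPKM in NT (11.1 to 14.2). Gal was at 12.7 RPKM in ST (10.9 to 14.8) and 9.03 RPKM in NT (7.68 to 10.5). For both genes the intervals of the libraries did not overlap. Tac1 was at 12.7 RPKM in ST (11.2 to 14.4) and 13.9 RPKM in NT (12.5 to 15.4). Pdyn, at 7.00 RPKM in ST (6.33 to 7.73) and 7.77 RPKM in NT (7.14 to 8.44), and Nts, at 5.39 RPKM in ST (4.49 to 6.42) and 5.79 RPKM in NT (4.96 to 6.73), were the lowest. The intervals of these 3 genes overlapped between the libraries.

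**Figure D2:**
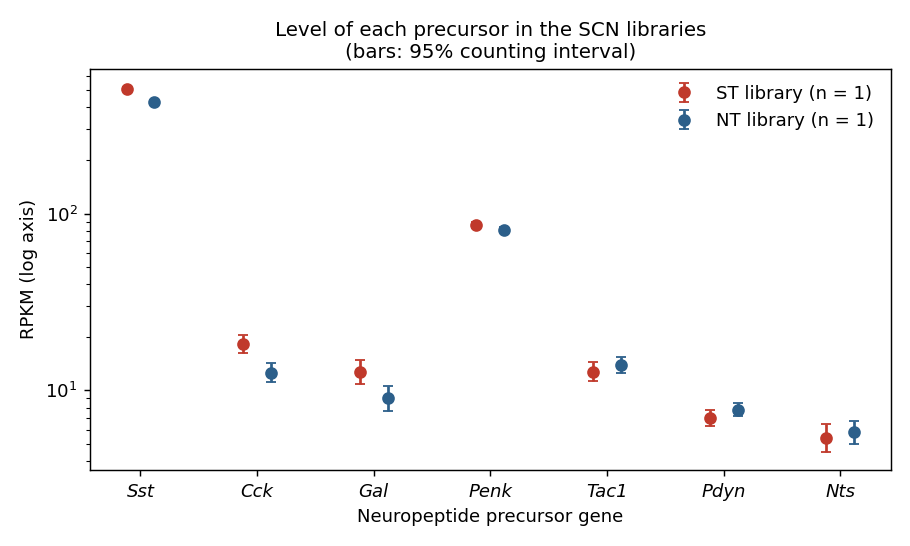
RPKM (log axis) of the 7 precursor genes in the ST and the NT library, 1 library each, with 95% Poisson counting intervals. Sst lies at 507 RPKM in ST and 426 RPKM in NT, and the intervals of both libraries are apart for Sst, Cck and Gal.

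The order of levels differed between the libraries below Penk. In ST the order was Sst, Penk, Cck, Tac1, Gal, Pdyn and Nts. Cck exceeded Tac1 there by a ratio of 1.44 (interval 1.22 to 1.72), and Tac1 and Gal could not be told apart (ratio 1.002, 0.823 to 1.22). In NT the order was Sst, Penk, Tac1, Cck, Gal, Pdyn and Nts, where Tac1 and Cck could not be told apart (1.10, 0.938 to 1.30), nor could Gal and Pdyn (1.16, 0.968 to 1.39). In ST, Gal exceeded Pdyn by 1.82 (1.51 to 2.18). Sst exceeded Penk by 5.91 in ST (5.64 to 6.18) and by 5.25 in NT (5.04 to 5.48).

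Cck, Gal and Sst were higher in the ST library than in the NT library, and Penk, Tac1, Pdyn and Nts did not differ beyond counting error. With 1 library per group there is no test and no estimate of biological spread, so every difference compares these libraries and not the conditions. Ratios below are of counts divided by size factors (normalised counts), ST over NT, with an exact 95% Clopper-Pearson interval for counting error. Cck had 293 counts in ST and 255 in NT, or 329 and 227 normalised counts, a fold of 1.45 (1.22 to 1.72). Gal had 175 counts in ST and 158 in NT, or 197 and 141 normalised counts, a fold of 1.40 (1.12 to 1.75). Both genes thus had more reads in the shallower library, which held 19476800 counts in ST against 24790727 in NT. Sst had 5867 counts in ST and 6274 in NT, or 6591 and 5585 normalised counts, a fold of 1.18 (1.14 to 1.22). Its depth gives the narrowest interval of the 7 genes.

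Of the 7 genes, 3 had a whole interval above 1, a rule met by 7.79% of all measured genes, and 0 had one below 1, which 10.2% met. Cck and Gal were at least 1.2-fold higher (3.37% of all measured genes), 0 members were at least 1.2-fold lower (6.13%), and 0 reached 2-fold in either direction (0.0209% higher and 0.23% lower). The median log2 ratio of the 7 genes was 0.07, against -0.002 over all measured genes. Among all measured genes, 0.397% had a ratio at least as high as that of Cck, 0.537% as that of Gal and 4.11% as that of Sst. Low counts scatter more, so each gene was also ranked among the measured genes with a mean normalised count within 1.5-fold of its own. There, 0.228% of 2635 genes had a ratio at least as high as Cck, 0.858% of 2099 genes as Gal and 0.427% of 702 genes as Sst. All 3 genes thus lay near the upper edge of genes of their own abundance.

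**Figure D3:**
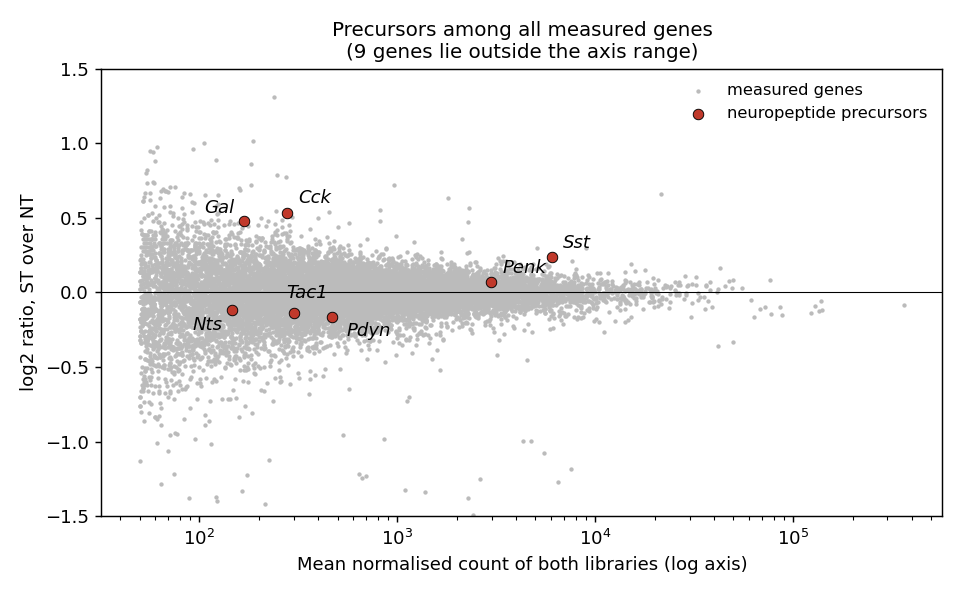
The log2 ratio of ST over NT against mean normalised count (log axis) for 14343 measured genes (grey) and the 7 precursors (red). Cck, Gal and Sst lie at the upper edge of the genes of like count, while Penk, Tac1, Pdyn and Nts lie inside the cloud, and 9 genes lie outside the axis range.

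Among the opioid precursors, Penk had 2728 counts in ST and 3279 in NT, or 3065 and 2919 normalised counts, with a log2 ratio of 0.07 and a fold interval of 0.998 to 1.10. Its interval holds 1 by a narrow margin and lay above 1 when libraries were scaled by total counts or by GABA-neuron genes. Penk alone of the 7 has fractional deposited counts, as when reads are divided between features. The antisense non-coding gene A830012C17Rik overlaps its start in GENCODE vM1 (bases 4065468 to 4115850 of chromosome 4), and the sources used here do not say whether counting used the strand. Pdyn had 393 counts in ST and 555 in NT, with a log2 ratio of -0.16 and a fold of 0.894 (0.783 to 1.02). Both opioid genes lay within 1.2-fold of equality.

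The tachykinin gene Tac1 had 255 counts in ST and 354 in NT, with a log2 ratio of -0.14 and a fold of 0.909 (0.771 to 1.07). Nts had 125 counts in ST and 171 in NT, with a log2 ratio of -0.12 and a fold of 0.923 (0.727 to 1.17). Pdyn, Tac1 and Nts were close to each other in ratio, and 12.8%, 15.4% and 18.7% of all measured genes had a ratio at least as low.

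**Figure D4:**
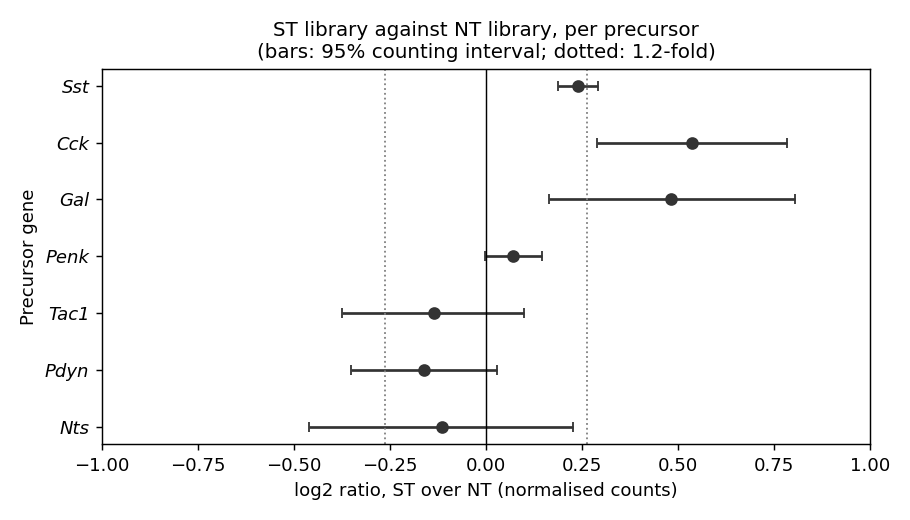
The log2 ratio of ST over NT for each precursor gene, with 95% Clopper-Pearson counting intervals from 1 library per group. The intervals of Cck (0.29 to 0.78), Gal (0.16 to 0.80) and Sst (0.19 to 0.29) lie above 0, and those of the other four hold 0.

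Ratios between precursors within a library need no scaling between libraries. Cck counts per Pdyn count were 0.746 in ST and 0.459 in NT, a 1.62-fold difference (exact conditional interval 1.31 to 2.02). Gal counts per Pdyn count were 0.445 in ST and 0.285 in NT, 1.56-fold apart (1.21 to 2.03). The balance of the abundant pair moved less, with 2.15 Sst counts per Penk count in ST and 1.91 in NT (1.12-fold, 1.06 to 1.197). Of all 21 pairs, 14 had an interval clear of 1. The pairs reuse the same 7 genes and restate their ratios, so that count is a description only. The largest was that of Cck over Pdyn. Within Pdyn, Tac1 and Nts, all 3 pairs had intervals that held 1, as did Cck over Gal (1.04, 0.782 to 1.38), while Cck over Sst was clear of it (1.23, 1.03 to 1.47).

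In the authors' deposited table the unadjusted p-value was 0.00588 for Cck, 0.0378 for Gal and 0.0627 for Sst, and between 0.343 and 0.651 for Penk, Tac1, Pdyn and Nts. After the authors' adjustment the deposited p-value was 1 for each of the 7 genes. These values come from 1 library per group.

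Receptors of these peptides, listed together with those of nociceptin (Oprl1) and neurokinin B (Tacr3), were mostly close to equal. Of 20 listed receptors, 19 were in the table and 15 were measured, with a median log2 ratio of 0.02. Among them, 1 interval lay above 1 and 2 below, against 7.79% and 10.2% of all measured genes. Sstr5, a somatostatin receptor, had 101 counts in ST and 84 in NT, and its log2 ratio, in the same direction as that of Sst, was 0.60 (1.13 to 2.05 as a fold). The intervals of the other somatostatin receptors held 1, with log2 ratios of -0.05 for Sstr1, the most abundant of them at 7.78 RPKM in ST and 8.00 RPKM in NT, -0.18 for Sstr2, -0.32 for Sstr3 and 0.12 for Sstr4. The cholecystokinin receptors Cckar (-0.17) and Cckbr (0.06) and the galanin receptor Galr1 (0.02) had intervals that held 1. Galr2, with 10 counts in ST and 13 in NT, and Galr3, with 4 and 7, fell below the count filter.

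Among opioid receptors, Oprk1, the dynorphin receptor, was at 4.93 RPKM in ST and 4.53 RPKM in NT and differed by 0.11 on the log2 scale (0.851 to 1.37 as a fold). Oprd1, the delta receptor that enkephalins bind, had 13 counts in ST against 41 in NT, with a ratio between 0.197 and 0.762, and its mean lay below the filter. The mu receptor Oprm1 also lay below it, with 26 counts in ST and 38 in NT. Oprl1, the nociceptin receptor, was the most abundant of the opioid family at 42.1 RPKM in ST and 41.0 RPKM in NT. Substance P acts on Tacr1 (log2 ratio 0.18, fold interval 0.977 to 1.32), and Tacr3, the neurokinin B receptor, was at -0.21 (0.707 to 1.06). The neurotensin receptor Ntsr2, at 92.1 RPKM in ST and 98.0 RPKM in NT, had a log2 ratio of -0.10 (0.887 to 0.979), and the neurotensin-binding sorting receptor Sort1 -0.11 (0.888 to 0.967), while Ntsr1 was at 0.05.

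Precursors listed as relatives gave 3 measured genes out of 7 listed. Pnoc, the nociceptin precursor and a relative of Penk and Pdyn, had 343 counts in ST against 364 in NT, a log2 ratio of 0.25 (1.02 to 1.38 as a fold). Tac2, which encodes neurokinin B, was at -0.14 (0.763 to 1.08), the same value as Tac1. Nmb, which encodes neuromedin B and belongs to the family of none of the 7 precursors, was at 0.01. Gast and Cort, relatives of Cck and Sst, were below the filter, with 19 and 1 counts in ST and 18 and 1 in NT.

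The enzymes that cut and finish the precursors differed little. Of 17 measured processing genes, 2 had an interval above 1 and 2 below, against 7.79% and 10.2% of all measured genes. None reached 1.2-fold, and the median was -0.01. The convertases Pcsk1 (0.03) and Pcsk2 (0.03), the amidating enzyme Pam (-0.00) and the carboxypeptidase Cpd (-0.01) had intervals that held 1. Pcsk1n, an inhibitor of Pcsk1, was at 0.19 (fold interval 1.12 to 1.17) and Scg5, the chaperone of Pcsk2, at 0.07 (1.01 to 1.09). The carboxypeptidase Cpe, at 609 RPKM in ST and 622 RPKM in NT, was at -0.04 (0.956 to 0.988), and Spcs3, a subunit of the signal peptidase, at -0.16 (0.835 to 0.964). Of 14 dense-core vesicle genes, 4 had an interval above 1 and 3 below, beside the same 7.79% and 10.2% of all measured genes. Their median was 0.03, with Scg2 at 0.17 (1.11 to 1.14) and Chga at -0.06 (0.932 to 0.987). Of 12 measured peptide-degrading enzymes, 0 had an interval above 1 and Ide alone one below, at -0.18 (0.818 to 0.951), and the median was -0.07.

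Markers of GABA neurons and of the SCN were present in both libraries. Gad2 and Gad1, the enzymes of GABA synthesis, had log2 ratios of -0.05 (fold interval 0.948 to 0.985) and -0.06 (0.940 to 0.986), both intervals below 1, and the vesicular GABA transporter Slc32a1 was at 0.04 (0.994 to 1.06). The summed level of these 3 genes was 360.5 RPKM in ST and 363 RPKM in NT, against 15.8 RPKM in ST and 16.2 RPKM in NT for the glutamate transporter Slc17a6. All 13 SCN markers were detected in both libraries, with a median log2 ratio of -0.09, 4 intervals above 1 and 4 below. So 8 of the 13 differed beyond counting error, while 7.79% of all measured genes had an interval above 1 and 10.2% one below. Intervals narrow with depth, so genes of many counts pass this rule at small ratios. Vip, a peptide of ventral SCN neurons, was at -0.24 and Avp, a peptide of dorsal SCN neurons, at 0.21. The libraries do not show which neurons, inside or outside the SCN, these transcripts came from. Over 12 measured genes of all neurons the median was 0.01. Scaled to the GABA-neuron genes, the log2 ratio was 0.57 for Cck, 0.52 for Gal and 0.28 for Sst, and scaled to the genes of all neurons 0.52, 0.47 and 0.23.

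Markers of other cells differed in direction from list to list. In dissected tissue, fewer cells of a type and less RNA per cell cannot be told apart. Of 7 listed genes of paraventricular and supraoptic neurons, which lie near the SCN and in the rat also make galanin and cholecystokinin, 5 were measured, of which 2 had an interval above 1 (7.79% of all measured genes) and 0 one below. Their median was 0.20, with Trh at 0.56 (fold interval 1.39 to 1.57), Oxt at 0.30 (1.19 to 1.27), Sim1 at 0.20 (0.962 to 1.37), Otp at 0.19 (0.964 to 1.35) and Pou3f2 at -0.09 (0.739 to 1.19). The summed level of the 7 genes was 921 RPKM in ST and 732.5 RPKM in NT, most of it Oxt, and 0 of them were at 0 counts. Their part in the higher values of Cck, Gal and Sst was not tested.

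Striatal neurons, which make much Penk, Tac1 and Pdyn, gave a median of 0.05 over 10 measured genes. Their summed level was 44.2 RPKM in ST and 41.2 RPKM in NT. They had 1 interval above 1, that of Gpr6 (2.01-fold), and 0 below. Over all measured genes, 7.79% had an interval above 1 and 10.2% one below, which also applies to the lists that follow. Adora2a, which marks enkephalin neurons of the striatum, was below the filter, with 18 counts in ST and 29 in NT. Its interval held 1 (0.410 to 1.46 as a fold). Cortical interneurons, many of which make Sst, gave a median of -0.01 over 9 measured genes and 0 intervals clear of 1, with a summed level of 194 RPKM in ST and 196 RPKM in NT. Lhx6, a factor of those interneurons, was below the filter with 56 counts in ST against 21 in NT (2.01 to 5.85 as a fold). Other hypothalamic peptide genes, listed together with the enzyme gene Th, had a median of -0.23 over 7 measured genes, with Pomc at -2.41 and Qrfp at 0.59. Of these, Npy is also counted among the cortical interneuron genes and Tac2 among the relatives. All 10 oligodendrocyte genes had an interval below 1 (median -0.30), as did all 8 vessel and meningeal genes (median -0.53), against 10.2% of all measured genes. Genes known to respond to cAMP signalling, the pathway of the response element in the Sst promoter, had a median of 0.21, with 9 of 13 intervals above 1, among them that of Fos at 0.63, and 0 below, against 7.79% and 10.2% of all measured genes. The intervals of Bdnf, Pcsk1, Crem and Dusp1 held 1, and Vgf, Scg2 and Pcsk1 are also counted in the vesicle and processing lists. The part of any of these lists in the values of the precursors was not tested.

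**Figure D5:**
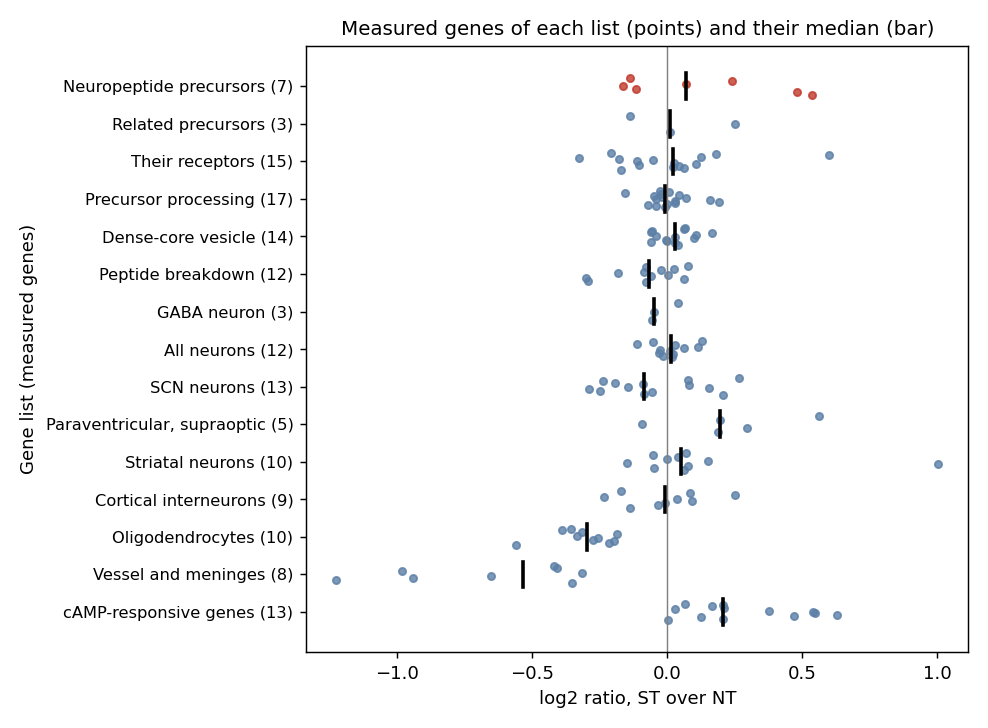
The log2 ratio of ST over NT for the measured genes of each list (points, number of genes in brackets) with the list median (bar), 1 library per group. The 7 precursors run from -0.16 to 0.54 around a median of 0.07, the oligodendrocyte and vessel lists lie below 0, and the cAMP-responsive genes have a median of 0.21.

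In the coordinates of the deposited table, which match NCBIM37 (mm9), each precursor is a protein-coding gene. Sst (ENSMUSG00000004366) lies on chromosome 16 from 23889670 to 23890930, Cck (ENSMUSG00000032532) on chromosome 9 from 121398943 to 121404780, and Gal (ENSMUSG00000024907) on chromosome 19 from 3409919 to 3414472. Penk (ENSMUSG00000045573) lies on chromosome 4 from 4060678 to 4065966, and Pdyn (ENSMUSG00000027400) on chromosome 2 from 129512301 to 129525580. Nts (ENSMUSG00000019890) lies on chromosome 10 from 101944392 to 101953069. These 6 genes are on the minus strand, and Tac1 (ENSMUSG00000061762) is on the plus strand of chromosome 6 from 7505071 to 7512973. Apart from Penk, the 7 genes overlap no other gene of GENCODE vM1.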

How the data were processed

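RNA of SCN tissue was sequenced in 1 library per group. Build mm9, DESeq, TopHat 1.2 and CASAVA 1.8.2 are listed in the submitters' processing notes, without role or order, and no counter is named in the sources used here. The authors deposited estimated counts (RC, per the file headers), which are fractional for 45.2% of genes in at least one library (tolerance 1e-06), RPKM and RPM values, and a comparison of ST over NT with a fold change ratio, its log2 and a p-value. A further 3 value columns were not used, since their names do not tie them to a sample.

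Estimated counts were rounded to whole numbers and divided by size factors from the median of ratios, 0.89 in ST and 1.12 in NT. A pseudocount of 0.5 was added for the log2 ratio and none for folds. The filter kept 14343 of 24229 genes, those whose normalised counts averaged 50 or more. Clopper-Pearson, Poisson and conditional odds-ratio intervals at 95% were computed with scipy 1.17.1 and cover counting error only. No test between groups was possible with 1 library each. List members were matched by symbol or Ensembl identifier. The calculations were checked on counts simulated with Poisson error alone, so the check does not cover spread between animals or copied reads.

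The members and gene lists were chosen with earlier results of these data known. All members are named. Measured receptors, relatives and processing genes could be named, as could up to 4 genes of each other list by size of ratio, and genes named beyond that, or below the count filter, were chosen after their values were seen. No gene was named for likeness of pattern, because 1 difference between 2 libraries is no pattern. Alternatives were total-count, TMM (edgeR 4.0.16), GABA-neuron and all-neuron scaling, a pseudocount of 5, filters of 10 and 200, whole counts only, and levels from size factors and annotated exon length. Protein sequences were not used here.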

Additional observations from a re-analysis of the deposited data

How the results depend on the processing

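No paired analysis was possible because there is only 1 library in a group, and none could be left out. All 53 values of the members' log2 ratios under the alternatives stayed within the counting interval of the reported value. All 14 levels did so too. The filters and the restriction to whole counts leave a gene's own ratio unchanged, so those values were fixed in advance. Scaling moved every log2 ratio by 0.04 with GABA-neuron genes, -0.01 with genes of all neurons, 0.01 with total counts and 0.00013 with TMM. The number of members with an interval above 1 was 4 with total-count and with GABA-neuron scaling, since the interval of Penk then lay above 1. It was 2 with a filter of 200, where Gal and Nts are too low to be measured, and for that reason the number of members at least 1.2-fold higher was 1 there, while it was 3 with GABA-neuron scaling, where Sst also passed (log2 ratio 0.28). With GABA-neuron scaling the median of the GABA-neuron genes was -0.013, by construction. Of 136 list medians under the alternatives, the other 135 stayed within the interval formed by the medians of their members' bounds. Depth leaves a fold interval of 1.14 to 1.22 for Sst and of 0.727 to 1.17 for Nts.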

Other observations

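Some hypothalamic genes of few reads, below the count filter and chosen after their values were seen, had counting intervals clear of 1. Crh, the corticotropin-releasing hormone gene of paraventricular neurons, had 32 counts in ST and 15 in NT (interval of the ratio 1.42 to 5.35). Ghrh, the growth hormone-releasing hormone gene of arcuate neurons, had 19 counts in ST and 49 in NT (0.272 to 0.847). Among the measured genes of the same neighbourhood, Th, the enzyme of dopamine synthesis, was at -0.27 on the log2 scale (0.729 to 0.943 as a fold). Cartpt was at -0.25 (0.708 to 0.993), and Adcyap1, which encodes the precursor of the peptide PACAP, at 0.16 (1.001 to 1.25).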
